A study of Mus musculus with 2 samples.

Results

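The genes described here are the tumour necrosis factor (TNF) superfamily ligands, their receptors and the TRAF adaptors, as measured in resident and thioglycollate-elicited peritoneal macrophages of the mouse. Members were taken by name: genes whose current symbol starts with Tnfsf or Tnfrsf, with Tnf, Lta, Ltb, Ltbr, Fas, Fasl, Cd27, Cd70 and the TRAF genes, wherever the platform annotation assigns a probe set to that gene alone. This gave 66 probe sets of 39 genes, among 18193 named genes on the array. The rule used names and no measured value, but it was set with earlier results of these data known. The 39 genes comprise 12 ligands, 21 receptors, 5 TRAF adaptors and Tnfsf13os, a long non-coding RNA antisense to a ligand gene. The ligand genes Tnfsf12 and Tnfsf13 and the adaptor gene Traf3 were not analysed here.

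TNF superfamily ligands are trimeric membrane proteins, some of which are shed, and they act by clustering receptors on neighbouring cells. Receptors with a cytoplasmic death domain can assemble complexes that lead to caspase activation, while most others bind TRAF proteins directly and signal to NF-kappaB and stress kinases. In macrophages the family is best known for TNF itself, which these cells produce and also sense, and for signals exchanged with lymphocytes, such as the B cell survival factor BAFF.

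The resident array held RNA from adherent peritoneal macrophages of C57BL/6J mice, 8 weeks old, that received no injection. The elicited array held RNA from mice of the same strain and age, collected 3 days after 1 mL of 3% thioglycollate was placed in the peritoneal cavity as a sterile irritant. Cells adhered for 2 h before washing per the sample labels, whereas the series text speaks of overnight culture, and the number of mice pooled for an array is unknown here. Each group was 1 array, so no value carries a replicate error, no test between the conditions was possible, and precision is limited by the number of arrays.

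Values are the authors' linear MAS5 signals. A signal counts as above background when it exceeds a floor of 82.2, the 95th percentile of 126 probe sets for chemosensory receptors and hair keratin-associated proteins, genes that macrophages are not thought to express. Signals under the floor were set to it. A fold against such a signal is only a lower limit, marked by the words at least. Differences are given as folds or as log2 ratios of elicited over resident signal, and 2-fold is used as a descriptive threshold. Probe sets for the same gene differed in log2 ratio with an SD of 0.48 over 4465 genes, which covers probe behaviour only and says nothing of variation between animals. Signals of different genes come from different probes and are not compared with each other.

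The labelled cell type was checked against its markers: 8 of 8 pan-macrophage markers exceeded the floor on each array, with summed signals of 141135 (resident) and 137236 (elicited). Markers of resident large peritoneal macrophages exceeded it in 8 of 8 and 5 of 8 (summed signals 78924 and 5367), with Timd4, Alox15 and F5 at or below the floor after thioglycollate. Markers of several other cell types differed between the arrays. Of 10 B cell markers, 10 exceeded the floor in resident cells (summed signal 25156) and 7 in elicited cells (4977), where Cd79a, Cr2 and Fcer2a did not. Of these 10, 8 were at least 2-fold lower, while Pax5 (141 and 159) and Cd22 (2269 and 4078) were not, and Cd22 supplied most of the elicited sum. The 12 markers of mesothelium and fibroblasts went the other way, with 4 exceeding the floor in resident (summed signal 730.05) and 11 in elicited cells (16446). T and NK cell markers exceeded it in 5 of 7 for resident and 1 of 7 for elicited cells (summed signals 913 and 471; the 1 was Cd28, with 112 and 321), dendritic cell markers in 4 and 0 of 7 (2842 and 355), and mast cell markers in 5 and 0 of 7 (2503 and 145). Neutrophil markers exceeded it in 3 of 8 on each array (12026 and 8383).

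Promoter windows of 4 members are shown because these genes span the main patterns: Ltb and Tnf are neighbours on chromosome 17 with unlike ratios, and Fas and Tnfsf13b are a receptor and a ligand gene with nearly equal ratios. Each is the 250 bases upstream of the annotated start (RefSeq, GRCm38.p6), written 5′ to 3′ on the gene's strand. Capitals mark matches, on either strand, to the kB consensus bound by NF-kappaB, to the AP-1 site TGANTCA and to GAGGAA, the core bound by the macrophage factor PU.1.
Ltb, chr17:35194257-35194506, plus strand: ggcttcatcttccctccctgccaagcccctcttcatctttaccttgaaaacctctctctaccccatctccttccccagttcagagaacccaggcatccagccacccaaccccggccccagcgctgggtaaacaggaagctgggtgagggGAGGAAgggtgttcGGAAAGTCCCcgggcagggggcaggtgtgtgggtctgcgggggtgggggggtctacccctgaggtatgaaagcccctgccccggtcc
Tnf, chr17:35202008-35202257, minus strand: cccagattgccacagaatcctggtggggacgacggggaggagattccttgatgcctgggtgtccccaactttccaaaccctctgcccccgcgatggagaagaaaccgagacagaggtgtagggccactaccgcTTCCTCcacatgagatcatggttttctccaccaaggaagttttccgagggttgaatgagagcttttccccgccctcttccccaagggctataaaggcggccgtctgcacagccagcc
Fas, chr19:34290409-34290658, plus strand: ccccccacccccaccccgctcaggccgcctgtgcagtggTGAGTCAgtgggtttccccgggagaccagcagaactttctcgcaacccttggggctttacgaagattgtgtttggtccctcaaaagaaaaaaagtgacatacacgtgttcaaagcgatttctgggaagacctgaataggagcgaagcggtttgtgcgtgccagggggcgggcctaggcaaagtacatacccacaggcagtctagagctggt
Tnfsf13b, chr8:10006383-10006632, plus strand, the downstream of its annotated starts: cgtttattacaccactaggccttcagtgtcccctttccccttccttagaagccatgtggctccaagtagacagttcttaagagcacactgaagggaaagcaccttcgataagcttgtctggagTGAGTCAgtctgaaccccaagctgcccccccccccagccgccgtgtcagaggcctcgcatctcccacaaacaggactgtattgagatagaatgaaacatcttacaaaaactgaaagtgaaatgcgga

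The Ltb window held a PU.1 core at -101 to -96 and a kB match at -87 to -78, counted in bases from the start, and these did not overlap. The Tnf window held a PU.1 core at -117 to -112 and no match to the other motifs. Fas and Tnfsf13b each held 1 AP-1 match, at -211 to -205 and at -127 to -121, while the window of the upstream Tnfsf13b start held none of the 3 motifs. Windows were found for 32 of the 39 member genes, 36 windows in all. Of these, 4 held a kB match (11.1%), 5 an AP-1 match (13.9%) and 13 a PU.1 core (36.1%), where the shares over all 32851 windows were 7.25%, 6.75% and 23.3%. These are matches of letters and not evidence of binding.

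Most of the family was either undetected or within 2-fold between the arrays, and the larger differences were mainly toward lower signal on the elicited array. Of the 39 members, 24 exceeded the floor somewhere, 18 of them on both arrays. Among the 24, Tnfrsf12a was at least 2-fold higher on the elicited array and 8 members were at least 2-fold lower: Ltb, Tnfsf13b, Tnfsf13os, Tnfrsf13c, Fas, Tnfrsf18, Traf1 and Traf2. The remaining 15 were not called past 2-fold. For 2 of these, Tnfrsf9 and Tnfrsf14, the fold is a lower limit, so they are not shown to lie within 2-fold. Of all 11560 measured genes, 8.04% reached 2-fold higher and 11.8% reached 2-fold lower, beside 4.17% and 33.3% of the measured members. Of the 8 lower members, 4 (Ltb, Tnfrsf13c, Tnfrsf18 and Traf1) were measured through the resident array alone, so their count is not support for a shift. Over the 18 members above the floor on both arrays, 1 was higher and 4 were lower, where the shares of all such genes were 7.55% and 11.1%.

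The median log2 ratio of the 24 members was -0.46, against -0.03 for all measured genes. Of the 24, 5 were measured on the resident array alone, 1 on the elicited array alone and 18 on both. Of all 11560 measured genes, 1757 were measured on 1 array alone and 9803 on both. How the 1757 split between the arrays is not given here. Being measured on 1 array alone fixes the sign of a ratio, so the gap between the medians is not support for a shift. Over the 18 members above the floor on both arrays the median was -0.31, against -0.02 for all such genes. By role, the median of the measured members was -0.52 over 5 ligands, 0.12 over 14 receptors and -0.87 over 4 TRAFs, with members at the floor held at their bound. The scaling of the arrays moved these values. The median of all genes was 0.25 with equal array medians, 0.16 with quantile normalization, 0.06 with a loess fit subtracted and -0.31 on the spiked hybridisation controls. The median of the measured members, those measured on 1 array alone included, lay below these by 0.45, 0.23, 0.34 and 0.31. With quantile normalization 2 of 25 members were higher (8.0%) and 6 lower (24.0%), beside 11.1% and 8.05% of all genes. The log2 ratios of Tnf, Ltbr, Tnfrsf1a, Tnfrsf4, Tnfrsf11a, Tnfrsf21 and Tnfsf4, each within 2-fold as deposited, changed sign under at least 1 alternative, so none of these is given a direction. Among all genes past 2-fold, the higher share was 40.5% as deposited, and from 21.1% (hybridisation controls) to 65.6% (equal medians) under the other scalings.

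**Figure D1:**
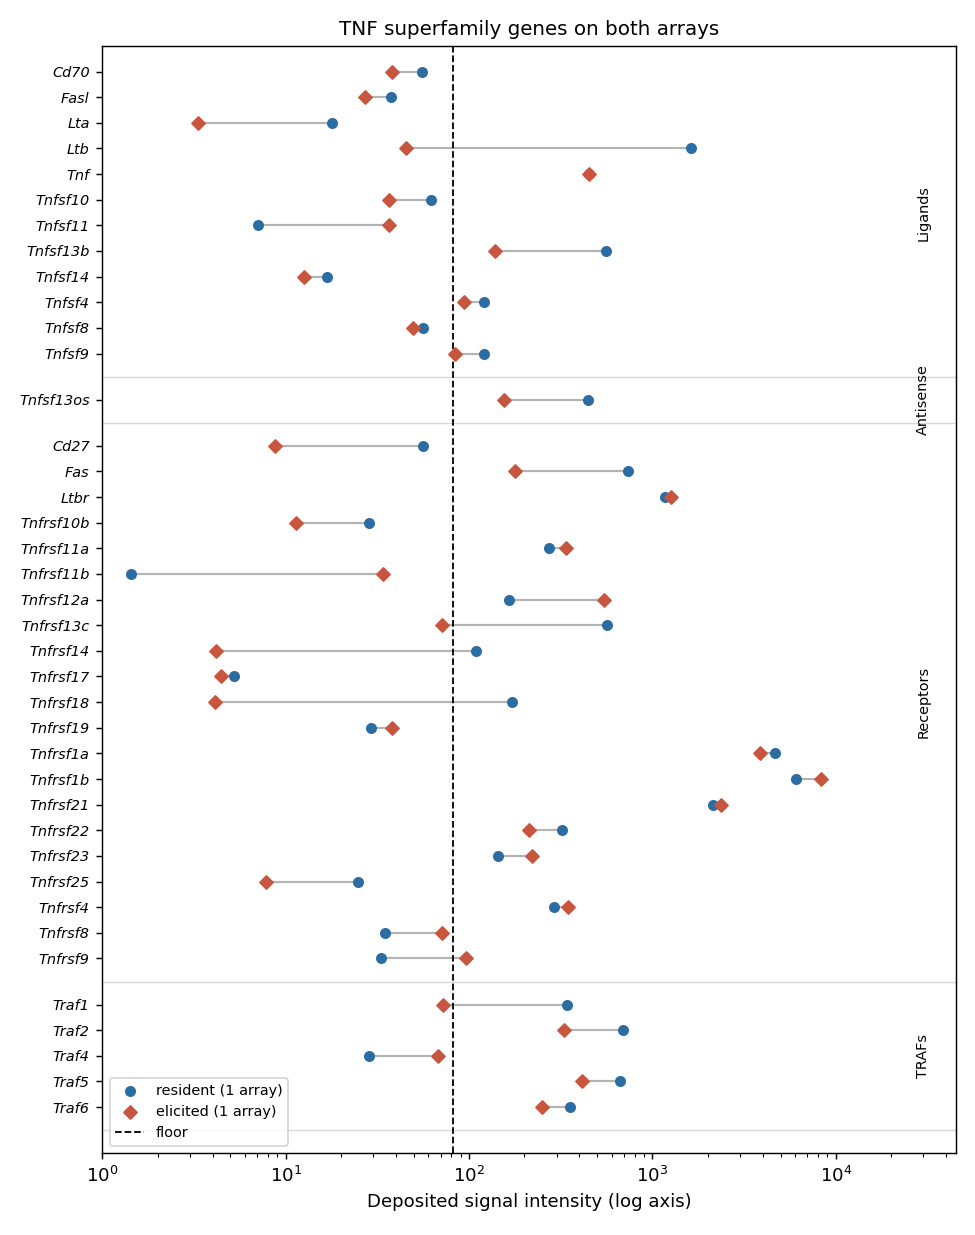
Signals of all 39 genes on the resident (circles) and elicited (diamonds) arrays, on a log axis of deposited intensity, by role, each gene shown by its brightest probe set. The dashed line is the floor of 82.2; 15 genes lie at or below it on both arrays, and Ltb, Tnfrsf13c, Tnfrsf14, Tnfrsf18 and Traf1 cross it from the resident to the elicited array.

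Among the ligands, Tnf, the founding cytokine of the family, had a signal of 449 on each array (log2 ratio 0.00). Its log2 ratio ranged from -0.31 to 0.36 over the alternative scalings, floors and probe-set rules, so no direction is given. Lta, its close relative in the same cluster of genes on chromosome 17, was at or below the floor on both arrays.

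Ltb encodes lymphotoxin beta, the membrane anchor that holds lymphotoxin alpha at the surface of lymphocytes. Its signal was 1629 in resident cells and 45.2, under the floor, in elicited cells. Ltb was therefore at least 19.8-fold lower, the largest fold among the measured members once signals were raised to the floor. As a lower limit it does not rank Ltb against other members that fell under the floor. The bound was -3.22 on the log2 scale with a floor at the 99th percentile. Of the 10 B cell markers 8 were lower too, among them Ms4a1 (5281 and 139) and Cd79b (3417 and 143), whereas Cd22 and Pax5 were not, and their part in the Ltb difference was not tested. In bulk RNA, fewer cells of a type and less RNA per cell cannot be told apart.

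Tnfsf13b encodes BAFF, the myeloid cytokine that keeps mature B cells alive. Its brightest probe set gave 561 in resident and 138 in elicited cells, 4.06-fold lower. A second probe set gave 107 and 78.7, at least 1.30-fold lower, and another was below the floor on both. The second value is a lower limit, so the sizes given by these probe sets cannot be compared. The antisense transcript Tnfsf13os, read by a probe set with signals of 447 and 155, was 2.89-fold lower, and its second probe set was at or below the floor on both arrays.

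The costimulatory ligand genes were dim. Tnfsf4, whose product OX40L stimulates T cells, had signals of 120.1 in resident and 93.9 in elicited cells (log2 ratio -0.36). Tnfsf9, the ligand of the receptor encoded by Tnfrsf9, had 121 and 84.1 (log2 ratio -0.52). Both lie within 2-fold and close to the floor, and neither exceeded the 99th percentile floor of 174 on either array. The remaining 7 ligand genes, Cd70, Fasl, Lta, Tnfsf8, Tnfsf10, Tnfsf11 and Tnfsf14, were at or below the floor in every probe set on both arrays. They include the death ligands Fasl and Tnfsf10 (TRAIL) and the osteoclast factor Tnfsf11 (RANKL).

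The principal TNF receptors were well above the floor and within 2-fold between the arrays. Tnfrsf1a, the death domain receptor that conveys most inflammatory TNF signals, had signals of 4664 in resident and 3871 in elicited cells (log2 ratio -0.27). Tnfrsf1b, the TNF receptor that is most abundant on leukocytes and binds TRAF adaptors, had 6090.3 and 8357 in its brightest probe set (log2 ratio 0.46). Its second probe set gave 1422 and 1114 (log2 ratio -0.35), so the direction for Tnfrsf1b is unsettled.

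Fas, the death domain receptor for Fas ligand, was the one measured death domain receptor past the threshold. Its signal was 736 in resident and 179 in elicited cells, 4.11-fold lower, and its log2 ratio stayed between -2.35 and -1.63 over the 11 alternatives. Tnfrsf21 (death receptor 6) had signals of 2137 and 2374 in its brightest probe set and 1179.8 and 726 in the other, with log2 ratios of 0.15 and -0.70. The TRAIL receptor gene Tnfrsf10b and Tnfrsf25 were at or below the floor on both arrays. Fas was thus lower on the elicited array while Tnfrsf1a and Tnfrsf21 lay within 2-fold.

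Tnfrsf22 and Tnfrsf23 encode mouse decoy receptors for TRAIL that lack a death domain. The brightest probe set of Tnfrsf22 gave 322 in resident and 212 in elicited cells (log2 ratio -0.60), while its other probe sets had a log2 ratio of -0.21 and a bound of at least 0.69 (68.7, under the floor, and 133). Tnfrsf23 had 144 and 219 (log2 ratio 0.61), and reached 1.11 with quantile normalization. These genes are close relatives of each other, so probes may read more than 1 of them. Tnfrsf11b, the soluble decoy for RANKL, was at or below the floor on both arrays.

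Tnfrsf12a, the receptor for the ligand TWEAK and a gene induced in many cells during tissue repair, was the member with higher signal. The probe set with the higher mean gave 165 in resident and 544 in elicited cells, 3.29-fold higher, and carries the suffix that marks possible cross-hybridisation. A probe set without that suffix gave 95.1 and 634, 6.66-fold higher. Its resident signal was close to 92.7, the floor taken from that array alone. The resident signals of both probe sets were below the 99th percentile floor of 174. The log2 ratio lay between 1.34 and 2.74 over the alternatives. Fibroblasts and mesothelial cells are known to express this gene, and their markers were higher on the same array: Col1a2 had signals of 166 and 5452 and Pdgfra of 45.7 and 755. Their part in the Tnfrsf12a difference was not tested.

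Receptors of lymphocytes and their partners formed most of the rest. Tnfrsf13c, the BAFF receptor of B cells, had a signal of 564 in resident and 71.5 in elicited cells, at least 6.87-fold lower. Tnfrsf18 (GITR), a costimulatory receptor of T cells, had 172 and 4.11, at least 2.09-fold lower. Tnfrsf14 (HVEM), a receptor for the ligand LIGHT, had 109 and 4.16 and was at least 1.33-fold lower. All 3 were detected in resident cells and not in elicited cells. So were 3 of 10 B cell, 4 of 7 T and NK cell, 4 of 7 dendritic cell and 5 of 7 mast cell markers. Cd28 and Cd22 had higher signals in elicited cells. Of all 11560 measured genes, 1757 were detected on 1 array alone, and the share detected in resident cells alone is not given here. The part of B, T, NK, dendritic and mast cells in the differences of these receptors was not tested. The Tnfrsf14 value passed 2-fold under the alternatives that use a pseudocount in place of the floor (log2 ratio -4.41 with 1, -1.15 with the floor's value). The Tnfrsf18 bound fell short of 2-fold with equal medians (log2 ratio -0.999), quantile normalization (-0.83) and the floor of the resident array alone (-0.89).

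Of the other receptors, Ltbr and Tnfrsf4 lay within 2-fold, and Tnfrsf9 has only a lower limit. Ltbr, the receptor for lymphotoxin and LIGHT on stromal and myeloid cells, had signals of 1176 and 1257 (log2 ratio 0.10), while its ligand gene Ltb was at least 19.8-fold lower. Tnfrsf4 (OX40) had 292 and 344 (log2 ratio 0.24). Tnfrsf9, a costimulatory receptor, was measured on the elicited array alone, with 33.3 and 96.8, at least 1.18-fold higher. The other probe sets of Tnfrsf9 were below the floor on both arrays.

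Tnfrsf11a encodes RANK, the receptor that drives osteoclast formation from macrophage precursors. Its brightest probe set gave 273 in resident and 336 in elicited cells (log2 ratio 0.30), and its other gave 102 and 377 (log2 ratio 1.89, 3.70-fold higher). The sizes lay on opposite sides of the 2-fold threshold. On the hybridisation controls the brightest probe set had a log2 ratio of -0.01. Cd27, Tnfrsf8, Tnfrsf17 and Tnfrsf19, known mainly from lymphocytes, plasma cells and epithelium, were at or below the floor on both arrays. Over all 15 undetected members the signals ranged from 1.43 to 71.3.

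**Figure D2:**
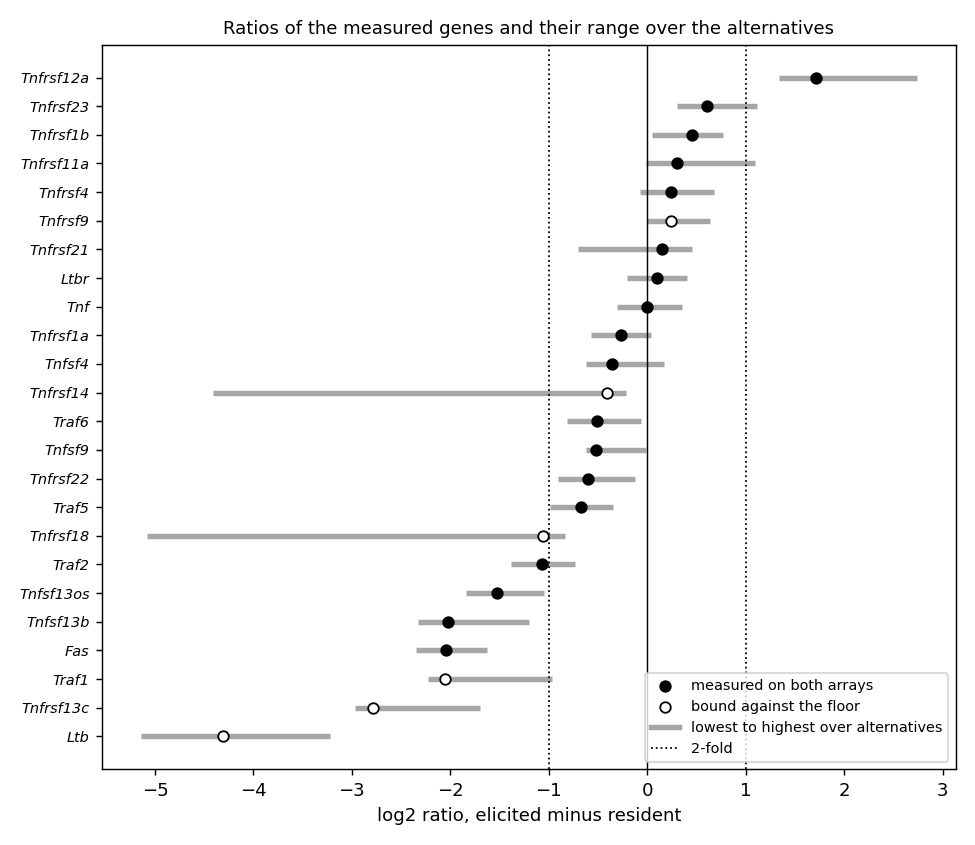
Log2 ratios (elicited minus resident) of the 24 measured genes, with filled circles for genes above the floor on both arrays, open circles for bounds against the floor, and grey bars from the lowest to the highest value over the alternative settings. Tnfrsf12a stayed above the dotted 2-fold line (1.34 to 2.74), Ltb, Tnfrsf13c, Fas, Tnfsf13b and Tnfsf13os stayed below the other one, and the bars of Traf1, Traf2, Tnfrsf18 and Tnfrsf14 (-4.41 to -0.21) cross it. The bars of Tnfrsf11a and Tnfrsf23 cross the upper line.

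The TRAF adaptors link receptors to ubiquitin ligases and kinases. Traf1, an adaptor without a RING domain that NF-kappaB induces, had signals of 341 in resident and 72.2 in elicited cells in its brightest probe set, at least 4.15-fold lower. Its second probe set gave 127 and 101, 1.26-fold lower, and with the 99th percentile floor the bound was -0.97 on the log2 scale. Traf2, which recruits the inhibitor of apoptosis proteins to TNF receptors, had 695 and 331, 2.10-fold lower. That value lay within 2-fold with equal medians (log2 ratio -0.76), quantile normalization (-0.73), loess (-0.78) and the floor added as a pseudocount (-0.91).

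Traf5, a close relative of Traf2, had signals of 662 and 414 (log2 ratio -0.68). Traf6, the adaptor shared with Toll-like and interleukin-1 receptors, had 356 and 250.1 (log2 ratio -0.51). Another probe set of Traf6 measured on both arrays had a log2 ratio of -0.32, and one measured on the resident array alone (115 and 33.7) was at least 1.40-fold lower. Traf5 and Traf6 lay within 2-fold in the probe sets measured on both arrays. Traf4 was at or below the floor on both arrays.

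Of the 8 members read by at least 2 probe sets above the floor, 5 had probe sets that agreed in direction (Tnfrsf11a, Tnfrsf12a, Tnfsf13b, Traf1 and Traf6) and 3 did not (Tnfrsf1b, Tnfrsf21 and Tnfrsf22). In Tnfrsf11a, Tnfrsf12a, Tnfrsf22 and Traf1 the ratios spanned more than 2-fold, bounds included. For Tnfsf13b and Traf6 a bound leaves the span unknown. Ltb, Tnfrsf13c, Fas, Tnfrsf18 and Traf2 rest on 1 probe set each and have no such check.

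**Figure D3:**
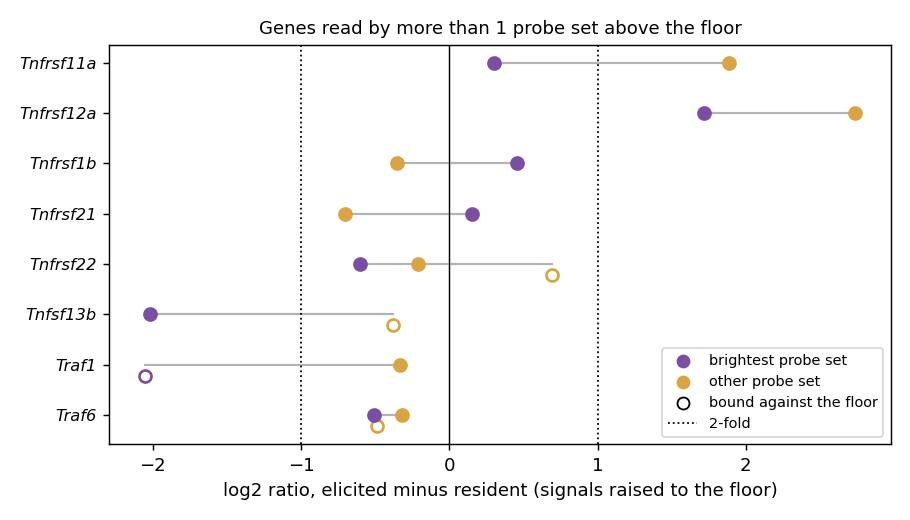
Log2 ratios of each probe set above the floor on at least 1 array for the 8 genes with several, after raising signals to the floor, with the brightest probe set in purple, the others in yellow and open circles, set slightly lower, for bounds against the floor. Both probe sets of Tnfrsf12a lie to the right of the 2-fold line (1.72 and 2.74), those of Tnfrsf1b lie on opposite sides of 0 (0.46 and -0.35), and Tnfsf13b, Tnfrsf22, Traf1 and Traf6 each have 1 bound.

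Set beside each other by ligand and receptor, the BAFF pair was lower at both ends, with Tnfsf13b 4.06-fold and Tnfrsf13c at least 6.87-fold lower. For lymphotoxin the ligand gene Ltb was lower and the receptor gene Ltbr was within 2-fold. For Fas the receptor gene was 4.11-fold lower and the ligand gene was at or below the floor. For TNF the ligand and both receptor genes were within 2-fold. RANK was measured and its ligand gene Tnfsf11 was not, and for OX40 both genes were within 2-fold.

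Family genes that these names do not cover were measured as well. Cd40, the costimulatory receptor of B cells and macrophages, had signals of 956 and 239 (slightly under 4-fold lower), and Relt, a receptor of blood cells, had 486 and 150 (3.24-fold lower). Traf7 had 875 and 444 (log2 ratio -0.98), within the threshold. Ngfr, the neurotrophin receptor, had 48.5 and 101, at least 1.23-fold higher. Cd40lg, Eda, Edar and Eda2r were at or below the floor on both arrays.

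Signalling partners were taken from a list of 43 genes that act downstream of the receptors or in the shedding and message control of TNF. Of these, 40 had a probe set and 39 were above the floor, all of them on both arrays. Of the 39, 3 reached 2-fold higher (7.69%) and 6 reached 2-fold lower (15.4%), close to the 8.04% and 11.8% of all measured genes, with a median log2 ratio of -0.31. In the death and survival complex, Birc3, a ubiquitin ligase that blocks caspase activation and is an NF-kappaB target, had signals of 6705 and 1600.2 (4.19-fold lower). Its log2 ratio was -1.30 in place of -2.07 when probe sets with an a, s or x suffix were left out. Cflar, the caspase-8 inhibitor c-FLIP, had 2917 and 931 (3.13-fold lower). Ripk3, the kinase of necroptosis, had 460 and 930 (2.02-fold higher), and its log2 ratio was 0.71 on the hybridisation controls. Tradd, Fadd, Casp8, Mlkl, Birc2 and Xiap were within 2-fold as deposited. However, Tradd had a log2 ratio of 1.16 when probe sets with an a, s or x suffix were left out. Birc2 had -1.06 on the hybridisation controls.

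Among ubiquitin editors and kinases, Cyld, a deubiquitinase that restrains NF-kappaB, had signals of 1779 and 823 (2.16-fold lower). Ikbke, an IKK-related kinase, had 2160.1 and 964 (2.24-fold lower). Both lay within 2-fold with equal medians, at log2 ratios of -0.80 and -0.86. Map3k5, the stress kinase ASK1, had 1874 and 445 (4.21-fold lower). Tnfaip3, the editing enzyme A20, had 3100 and 2239 (log2 ratio -0.47), and the linear ubiquitin ligase genes Rnf31, Rbck1 and Sharpin were within 2-fold.

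Among genes for TNF shedding and message control, Timp3, an inhibitor of the TNF-releasing protease ADAM17, had signals of 95.4 in resident and 495 in elicited cells (5.19-fold higher). Its resident signal was close to 92.7, the floor taken from that array alone. Also, fibroblasts, whose markers were also higher there, are known to make it; their part was not tested. Litaf, a lysosomal membrane protein, had 11635 and 27832 (2.39-fold higher). However, it lay within 2-fold with quantile normalization (log2 ratio 0.91), loess (0.84) and the hybridisation controls (0.95). Rhbdf1, a regulator of ADAM17 traffic, had 497 and 235 (2.12-fold lower), and was within 2-fold under the scalings by equal medians, quantile and loess. Adam17 itself had 6337 and 5349 in its brightest probe set (log2 ratio -0.24), and -0.75 with the median over probe sets. Zfp36, which destabilises the Tnf message, had 3681 and 2878 (log2 ratio -0.36).

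**Figure D4:**
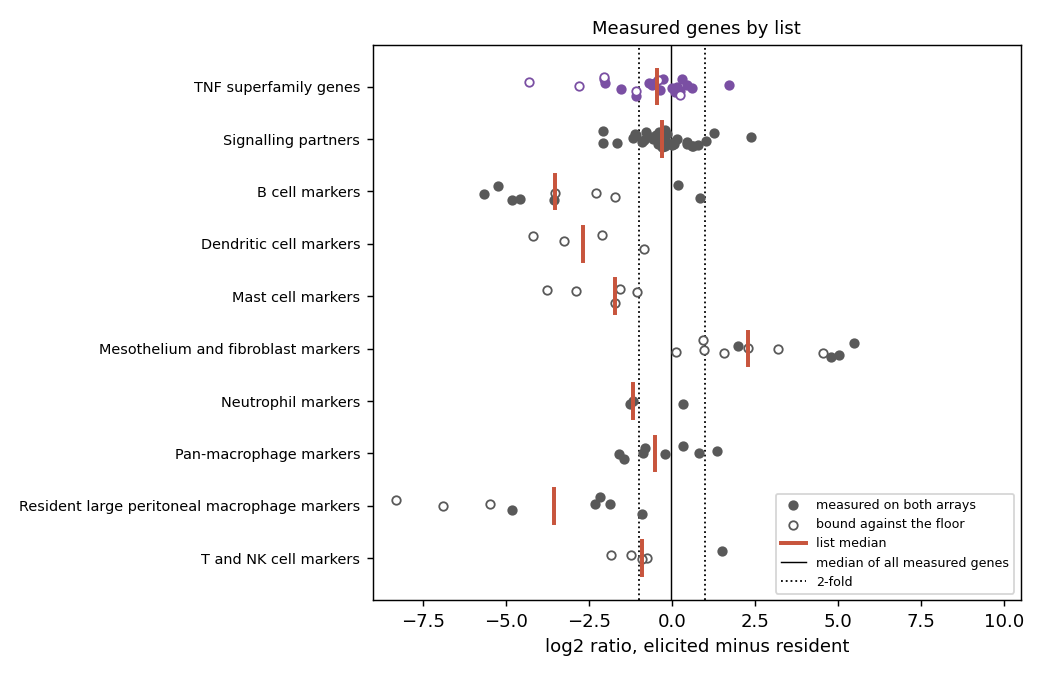
Log2 ratios of the measured TNF superfamily genes, of the 39 measured signalling partners and of cell type markers, with open circles for bounds, red bars for list medians and a thin line at the median of all measured genes (-0.03). The family median is -0.46 and the partners' -0.31, while the B cell markers have a median of -3.52 and the mesothelium and fibroblast markers of 2.30.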

How the data were processed

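RNA of 1 resident and 1 elicited macrophage array was analysed (45101 probe sets each, 100 ng of total RNA per label protocol). The authors deposited linear intensities. They used MAS5, according to the submitters' processing notes (version, target and detection calls: not given in the sources used here). Their trimmed mean (2% off each end) was 500 on both arrays, so the deposited values were scaled to a common target, and no further normalization was applied.

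Gene names came from the platform annotation. Symbols were brought up to date through gene IDs in RefSeq's GRCm38.p6 table (34754 of 34958 probe sets with 1 gene matched; 204 kept the older symbol). Another 932 probe sets with several genes and 9211 with none listed were left out. Signals were raised to the floor, and each gene was represented by its brightest probe set (mean of both log2 signals). Tnfsf13os is counted apart from the ligands, and 1 receptor gene with a matching name is not reported here. Fold and log2 values were computed with Python 3.11.15, numpy 2.4.6, pandas 2.3.3 and statsmodels 0.14.6, and the calculation was tested on simulated data. The members and lists were chosen with earlier results of these data known. Every member was to be accounted for, and signalling partners at least 2-fold apart were to be named; the other partners, markers and family genes named were chosen after their values were seen. Alternatives changed the scaling, the floor (a signal of 174 at the 99th percentile, 92.7 from the resident array alone), pseudocount, filter, probe-set choice and threshold.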

Additional observations from a re-analysis of the deposited data

How the results depend on the processing

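No paired analysis was possible because each group has 1 array. Counts of members at least 2-fold apart were within 1.5 times those reported (1 higher, 8 lower) except as follows. The higher count was 2 with quantile normalization (Tnfrsf23 added) and 2 with the median over probe sets (Tnfrsf11a added). These were 8.0% and 8.33% of the measured members, beside 11.1% and 7.02% of all genes. Without a floor, with a pseudocount of 1 and all 39 members kept, 5 were higher and 13 lower, which adds genes at background. Those counts were 12.8% and 33.3% of the members, beside 14.5% and 18.3% of all genes. Among members above the floor on both arrays 4 were lower (22.2%, beside 11.1% of all such genes). At 4-fold 0 were higher and 5 lower, and the shares of all genes at 4-fold are not given here. The median log2 ratio of -0.46 became -0.20 when array medians were equalised, -0.066 with quantile normalization, -0.27 after loess, -0.62 on the hybridisation controls (9 of 9 of which were higher on the elicited array, 1.24-fold at the median), -0.20 with the floor added as a pseudocount and -0.31 over members above the floor on both arrays; the cause was not tested. Of the 9 members past 2-fold, 6 stayed past it in each of the alternatives that gave them a value, and Traf1, Traf2 and Tnfrsf18 did not. Of the members not called past 2-fold, Tnfrsf11a, Tnfrsf14 and Tnfrsf23 passed it under at least 1. No member past 2-fold changed sign under the 11 alternatives. Signal over background limits Tnfsf4, Tnfsf9, Tnfrsf9, Tnfrsf14 and Tnfrsf18, whose signals were below the 99th percentile floor on both arrays.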
